A study of Populus ussuriensis with 20 samples.

Results

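The genes described here encode 3 consecutive kinds of enzyme of the monolignol pathway in the rooting stem base of Populus ussuriensis (Ussuri poplar). They are 4CL3 (Potri.001G036900) and 4CL5 (Potri.003G188500), HCT1 (Potri.003G183900) and HCT6 (Potri.001G042900), and C3H3 (Potri.006G033300). They were taken by identifier, with earlier results of these data known, and all 5 were found among the 34699 genes of the deposited table. The identifiers have the form of the Populus trichocarpa gene annotation. The table itself carries no gene names, so the names rest on the published naming of the lignin genes of that species.

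Monolignols are the alcohols from which lignin, the phenolic polymer of wood cell walls, is built. Within the phenylpropanoid pathway, 4CL (4-coumarate:CoA ligase) activates hydroxycinnamic acids by joining them to coenzyme A. HCT (hydroxycinnamoyl-CoA:shikimate hydroxycinnamoyl transferase) then moves the coumaroyl group onto shikimate, and C3H, a cytochrome P450 enzyme, adds a hydroxyl group to the ring of that ester. These steps lead towards the guaiacyl and syringyl units that make up most lignin in poplar wood, and the same early intermediates also feed flavonoids and other soluble phenolics.

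Cuttings from plants of 3 weeks were kept for 5 days on solid Woody Plant Medium, under 16 h of light and 8 h of darkness, by the end of which they bore root primordia. Transfer was to a modified liquid Woody Plant Medium with 10 µM KH2PO4, the low phosphate level, or with 200 µM. RNA was sequenced from the basal ends of the stem, which held the primordia and the tissue around them, at 2, 4, 8, 12 and 24 h after transfer. Each of the 10 groups had 2 libraries, 20 in all, numbered 1 and 2 in the labels. All groups shared the species, the preculture and the sampled organ, and no cutting sampled before transfer was analysed here. The labels do not say whether the libraries of a group came from separate plants, so the p-values reflect no more than the spread among the sampled libraries, and part of that spread may be technical. The samples were bulk tissue, in which fewer cells of a type and less RNA per cell cannot be told apart. The study is titled as one of adventitious rooting under low phosphorus, and the comparisons ask whether the transcripts of these enzymes differed with phosphate and with time after transfer.

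Library totals recovered from the steps between low values lay between 14053677 and 15764764 fragments. The values were FPKM, fragments scaled by gene length and by library total, so that levels can be set side by side between genes. Replicate libraries differed most at 10 µM and 8 h, with an SD of log2 differences over all genes of 0.430 against 0.229 to 0.395 in the other groups, and results are given with and without the 8 h libraries where these change a call. Genes with at least 1 FPKM in at least 2 libraries were tested, 24934 in all, and all 5 members passed this filter. Tests were made with limma on log2(FPKM + 1), a scale on which a fold change is slightly understated, with Benjamini-Hochberg adjusted p-values over all tested genes and a threshold of 0.05.

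All 5 genes were well expressed. 4CL3 was the most abundant, with a mean of 107.3 FPKM over the 20 libraries and a rank of 1067 among the 24934 tested genes. C3H3 had a mean of 58.5 FPKM, HCT6 of 36.3, 4CL5 of 35.0 and HCT1 of 34.2 FPKM. The values rested on 2869 to 5157 fragments per library for 4CL3, on 2517 to 4138 for C3H3, and on at least 717 for the other genes. The spread between replicates was small, with residual SDs on the log2 scale from 0.0638 for 4CL3 to 0.117 for C3H3, against a median of 0.165 over all tested genes and 0.132 over those with a mean of at least 20 FPKM. The range over the 20 libraries was also narrow, from 1.37-fold for HCT1 to 1.94-fold for HCT6.

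Both 4CL genes varied with time, with their lowest group mean at 2 h and 10 µM, and both had lower means at 10 µM than at 200 µM KH2PO4 at each time. The tests, given further on, were passed by both for time and by 4CL5 alone for the mean phosphate difference. At 10 µM, 4CL3 measured 92.2 and 82.4 FPKM in replicates 1 and 2 at 2 h, 94.3 and 88.2 at 4 h, 97.2 and 98.5 at 8 h, 107.0 and 102.6 at 12 h, and 108.7 and 114.3 at 24 h. At 200 µM it measured 99.6 and 93.4 FPKM at 2 h, 109.9 and 105.7 at 4 h, 116.2 and 111.7 at 8 h, 130.3 and 132.8 at 12 h, and 123.5 and 137.0 at 24 h. Both low-phosphate libraries lay below both libraries at 200 µM at each of the 5 times, although at 2 h the groups were separated by little more than 1 FPKM. This separation at all 5 times was seen in 15 of the 24934 tested genes (0.0602%).

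4CL5, the less abundant partner, had a flat course at low phosphate from 8 h on. At 10 µM its replicates 1 and 2 measured 28.8 and 24.7 FPKM at 2 h, 29.9 and 30.7 at 4 h, 32.2 and 31.3 at 8 h, 33.3 and 32.7 at 12 h, and 32.7 and 33.4 at 24 h. At 200 µM they measured 28.7 and 31.9 FPKM at 2 h, 36.6 and 32.4 at 4 h, 40.01 and 43.5 at 8 h, 47.1 and 47.6 at 12 h, and 37.5 and 44.6 at 24 h. The groups overlapped at 2 h and were apart at 4, 8, 12 and 24 h. Every 10 µM library from 8 h on lay between 31.3 and 33.4 FPKM, whereas the libraries at 200 µM reached their highest values at 12 h.

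**Figure D1:**
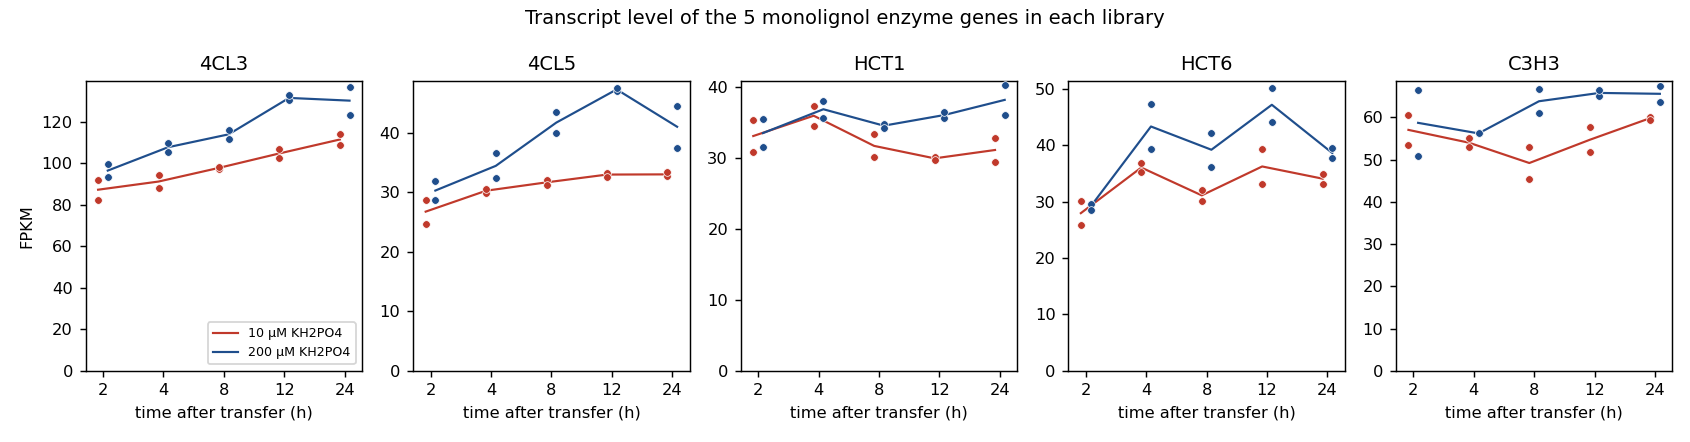
FPKM (vertical axes, from 0) of the 5 genes at 2, 4, 8, 12 and 24 h after transfer (equally spaced), for 10 µM (red) and 200 µM (blue) KH2PO4. Points are single libraries and lines join the means of the 2 libraries of a group. The 4CL3 points at 10 µM lie below those at 200 µM at every time. The points of the levels mix at 2 h for 4CL5, HCT1, HCT6 and C3H3, and at 4 h for HCT1.

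HCT1, 1 of the HCT genes, had the narrowest range of the 5 genes. At 10 µM its replicates 1 and 2 measured 35.4 and 30.8 FPKM at 2 h, 37.4 and 34.6 at 4 h, 33.4 and 30.1 at 8 h, 30.2 and 29.8 at 12 h, and 29.5 and 32.8 at 24 h. At 200 µM they measured 35.5 and 31.6 FPKM at 2 h, 35.7 and 38.1 at 4 h, 34.9 and 34.3 at 8 h, 35.7 and 36.5 at 12 h, and 36.1 and 40.4 at 24 h. The phosphate levels overlapped at 2 and 4 h and were apart, with 10 µM lower, at 8, 12 and 24 h.

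HCT6, the other HCT gene, had the widest range of the 5. At 10 µM its replicates 1 and 2 measured 30.1 and 25.9 FPKM at 2 h, 36.8 and 35.3 at 4 h, 30.2 and 32.1 at 8 h, 39.3 and 33.2 at 12 h, and 35.0 and 33.2 at 24 h. At 200 µM they measured 29.6 and 28.6 FPKM at 2 h, 47.3 and 39.4 at 4 h, 36.2 and 42.3 at 8 h, 44.2 and 50.2 at 12 h, and 39.5 and 37.8 at 24 h. The lowest group mean at each phosphate concentration was that at 2 h, and the highest was that at 12 h. The libraries of 12 h overlapped those of 4 h at both concentrations, so a peak at 12 h is not shown. The 10 µM libraries lay below the 200 µM libraries at 4, 8, 12 and 24 h.

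C3H3, the hydroxylase, had its lowest group mean at 10 µM and 8 h. At 10 µM its replicates 1 and 2 measured 60.6 and 53.5 FPKM at 2 h, 55.1 and 53.0 at 4 h, 53.0 and 45.4 at 8 h, 57.7 and 51.7 at 12 h, and 60.2 and 59.5 at 24 h. At 200 µM they measured 66.5 and 50.9 FPKM at 2 h, 56.20 and 56.23 at 4 h, 61.0 and 66.7 at 8 h, 65.2 and 66.4 at 12 h, and 63.7 and 67.5 at 24 h. The 2 libraries at 200 µM and 2 h were the farthest apart of any C3H3 group, with an SD of 11.1 FPKM. From 4 h on, both libraries at 10 µM lay below both at 200 µM at each time, at 4 h by about 1 FPKM.

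Ordered by level, the 10 groups of 4CL3 ran from 131.5 ± 1.73 FPKM (SD, n = 2) at 200 µM and 12 h down to 87.3 ± 6.91 FPKM at 10 µM and 2 h. Of the 9 neighbouring pairs in this order, 7 overlapped in their libraries. The pairs that were apart were 200 µM at 24 h over 200 µM at 8 h, and 10 µM at 12 h over 10 µM at 8 h. For 4CL5 the order ran from 47.3 ± 0.384 FPKM at 200 µM and 12 h to 26.8 ± 2.87 FPKM at 10 µM and 2 h, and 4 of the 9 neighbouring pairs were apart. The highest group was also 200 µM at 12 h for HCT6 (47.2 ± 4.24 FPKM) and C3H3 (65.8 ± 0.866 FPKM), with 3 and 2 neighbouring pairs apart. For C3H3, the pair of 10 µM at 4 h over 10 µM at 8 h was barely apart, by 52.9613 against 52.9552 FPKM. For HCT1 the highest group was 200 µM at 24 h (38.3 ± 3.00 FPKM) and the lowest was 10 µM at 12 h (30.0 ± 0.284 FPKM), and all 9 neighbouring pairs overlapped. The groups were ordered by these same values, and the share of pairs apart over all tested genes was not counted.

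Averaged over the 5 times, each of the 5 genes had a lower level at 10 µM than at 200 µM KH2PO4, and 4CL5 passed the test. The mean log2 difference of 4CL5 was -0.31 ± 0.046 (SE), a level 19.3% lower, with a Benjamini-Hochberg adjusted p of 0.0221 in limma. It was 1 of 4 genes that were lower with an adjusted p under the threshold, 0.016% of the 24934 tested. The difference of 4CL3 was -0.23 ± 0.039 (14.7% lower) and missed the threshold with an adjusted p of 0.0655 in limma. HCT6 differed by -0.24 ± 0.053 (15.1% lower, adjusted p 0.222), C3H3 by -0.17 ± 0.053 (11.2% lower, adjusted p 0.516) and HCT1 by -0.14 ± 0.045 (9.53% lower, adjusted p 0.516), none of which passed in limma. The 95% confidence intervals of the mean difference reached from -0.41 to -0.21 for 4CL5 and from -0.31 to -0.15 for 4CL3.

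The call of 4CL5 was fragile, while its size was not. Its log2 difference stayed between -0.33 and -0.28 when any 1 library was left out, but it passed in only 8 of these 20 fits (limma adjusted p 0.015 to 0.0864). Among the 10 µM libraries, the call was lost when replicate 2 of 2 h or either replicate of 4, 12 or 24 h was left out. Among the 200 µM libraries, it was lost on leaving out replicate 1 of 4 h, replicate 2 of 8 or 24 h, or either replicate of 12 h. Without the 4 libraries at 8 h the difference was -0.29 and the limma adjusted p was 0.141. For 4CL3 the log2 difference of -0.23 passed without the filter on low values (limma adjusted p 0.0365) and with voom, limma's method for counts, on the recovered fragments (adjusted p 0.0473). It missed the threshold with 0.1 in place of 1 added to FPKM (limma adjusted p 0.0699) and with quantile normalization (0.144). The same held with a term for the replicate number (limma adjusted p 0.109) and without the 8 h libraries (0.166). Leaving out any 1 library kept this difference between -0.25 and -0.21.

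The direction was shared by all 5 genes. In an unadjusted limma test each of the 5 had a p under 0.05 with a lower level at 10 µM, against 4.25% of tested genes, and the median of their mean log2 differences was -0.23 against 0.0026 over all tested genes. The group mean was lower at 10 µM in 25 of the 25 combinations of gene and time, and each gene was lower at all 5 times, as were 5.05% of tested genes. Both 10 µM libraries lay below both 200 µM libraries in 20 of the 25 combinations, and each gene showed this at 3 or more times, against 4.5% of tested genes. All but HCT1 showed it at 4 or more times, against 0.606%. Counted by time, 1 of the 5 genes was apart in this way at 2 h (9.63% of tested genes), 4 were at 4 h (18%), and all 5 were at 8 h (12.7%), 12 h (19.1%) and 24 h (21.5%). Among the 6453 genes with a mean of at least 20 FPKM, a limit chosen after the values were seen, 6.04% were lower at all 5 times and 4.79% were apart at 3 or more. The 5 genes are members of the same pathway measured in the same libraries, so they are not 5 separate observations of phosphate. They were also chosen with earlier results of these data known, so the shares beside them are a description and not a test. At 2 h the difference turned positive without replicate 2 of 10 µM for HCT1 (0.079), HCT6 (0.044) and C3H3 (0.056), and without replicate 1 of 200 µM for HCT1 (0.062) and C3H3 (0.16). At 4 h that of HCT1 turned positive without replicate 2 of 10 µM (0.020) or of 200 µM (0.011).

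**Figure D2:**
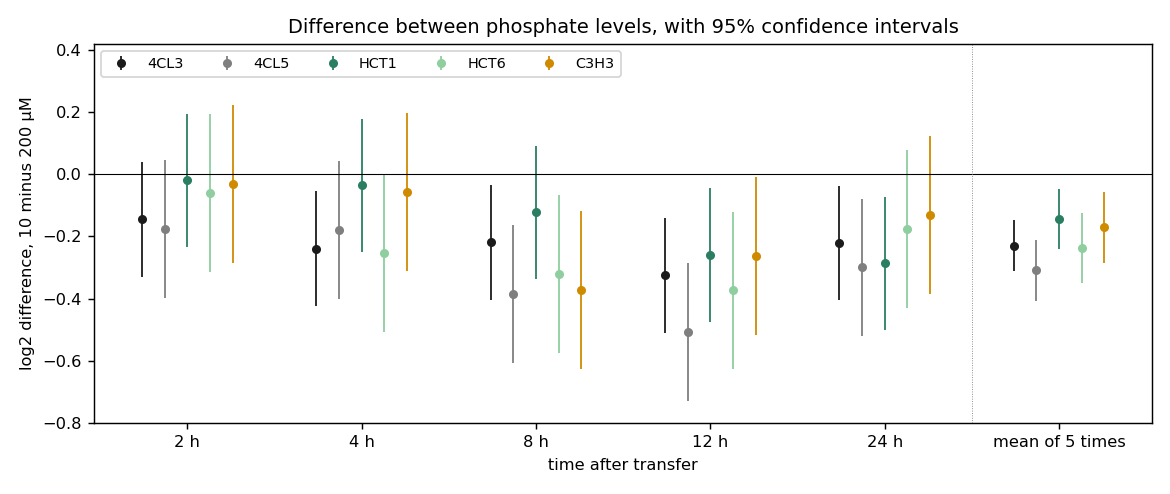
Log2 difference in level (10 minus 200 µM KH2PO4, vertical axis) of each gene at the 5 times and averaged over them (right). Points are limma estimates on log2(FPKM + 1) and bars are 95% confidence intervals, and all 30 points lie below 0.

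By time, the differences were smallest at 2 h and largest at 8 or 12 h for 4 of the genes. At 2 h they ran from -0.18 for 4CL5 to -0.02 for HCT1 on the log2 scale. At 12 h they ran from -0.51 for 4CL5, a level 29.6% lower, to -0.26 for HCT1, and all 5 genes had an unadjusted limma p under 0.05 there, against 2.73% of tested genes that were lower by this rule. The same held for 4 of the genes at 8 h (3.01% of tested genes), 3 at 24 h (2.82%), 2 at 4 h (2.01%) and 0 at 2 h (1%). HCT1 alone had its largest difference at 24 h, at -0.29, and C3H3 had its largest at 8 h, at -0.37. No member passed the adjusted threshold at any single time, and the smallest adjusted p of a member in limma was 0.413, for 4CL5 at 12 h. An unadjusted limma p under 0.05 was found at a single time for 492 (2 h) to 1485 (8 h) of the 24934 tested genes. If no gene differed, a share of 0.05 would be under this limit. The adjusted threshold was passed by no tested gene in limma (0% of 24934 at each time). With voom 4 genes passed at 24 h and 0 at the other times. Leaving out replicate 1 at 10 µM and 8 h gave 352 genes at 8 h, none of them a member.

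The phosphate difference was not shown to vary with time. In limma's F test of that variation 0 of the 24934 tested genes passed (0%), 751 (3.01%) had an unadjusted p under 0.05, and none of the 5 members was among these. With voom 0 genes passed, and without replicate 1 at 10 µM and 8 h 31 did, no member among them. The difference of 4CL5 spanned 0.33 on the log2 scale between its smallest and largest time, with an unadjusted p of 0.17 and an adjusted p of 1 in limma. For 4CL3 the span was 0.18 and the unadjusted p was 0.695.

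Over time, 3 of the 5 genes varied and the other 2 were not shown to. Averaged over both phosphate levels, the means of HCT6 spanned 0.52 on the log2 scale, those of 4CL5 spanned 0.46 and those of 4CL3 spanned 0.39 between the lowest and the highest time. Their Benjamini-Hochberg adjusted p values in limma's F test were 0.00667, 0.00543 and 0.00349, in this order, and each passed in all 20 fits that left out a library. The share of all tested genes called in this test was 14.6%. C3H3 (span 0.18, adjusted p 0.396) and HCT1 (span 0.14, adjusted p 0.438) did not pass in limma. Time after transfer cannot be told apart from age or from time of day in the light and dark cycle.

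The means of the genes that varied are given here by time, without a test between genes. Over both phosphate levels 4CL3 had means of 91.9, 99.5, 105.9, 118.2 and 120.9 FPKM in order of time, each higher than the one before. 4CL5 had means of 28.55, 32.4, 36.7, 40.2 and 37.05 FPKM, with its highest at 12 h. HCT6 had its largest step first, from 28.6 FPKM at 2 h, with libraries from 25.9 to 30.1, to 39.7 FPKM at 4 h, with libraries from 35.3 to 47.3. All 4 libraries at 4 h were above all 4 at 2 h, a separation whose share over all tested genes was not counted. The step measured 0.46 ± 0.084 (log2, SE) with a limma adjusted p of 0.0821, above the threshold. It passed when 1 of the 10 µM libraries of 8 h was left out (0.0423 for replicate 1 and 0.0422 for replicate 2) or when all 4 libraries of 8 h were (0.041). No step between neighbouring times passed for any member, while 0.0481% of tested genes passed from 2 to 4 h, 0.241% from 4 to 8 h, 0.108% from 8 to 12 h and 1.47% from 12 to 24 h.

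From 2 h to 24 h, 4CL3 rose at both phosphate levels. The change was 0.35 ± 0.086 (log2, SE) at 10 µM, a 1.28-fold rise with an adjusted p of 0.0483 in limma, and 0.43 ± 0.086 at 200 µM, a 1.34-fold rise with an adjusted p of 0.0149. 4CL5 rose at 200 µM by 0.42 ± 0.10 (1.34-fold, limma adjusted p 0.0379), and at 10 µM its change of 0.30 ± 0.10 did not pass (adjusted p 0.143). The changes of HCT6 were 0.28 ± 0.12 at 10 µM and 0.40 ± 0.12 at 200 µM (limma adjusted p 0.219 and 0.0865), and those of HCT1 were -0.08 ± 0.10 and 0.18 ± 0.10. C3H3 changed by 0.07 ± 0.12 and 0.17 ± 0.12. Rises were called in 1.62% of tested genes at 10 µM and in 2.7% at 200 µM.

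The calls from 2 h to 24 h lay near the threshold. In fits on the 4 libraries of each contrast alone, 4CL3 had limma adjusted p values of 0.209 at 10 µM and 0.288 at 200 µM, and 4CL5 had 0.322 at 200 µM. With quantile normalization 4CL3 missed the threshold at 10 µM (limma adjusted p 0.065). Of the 20 fits without 1 library, 4CL3 passed for 10 µM in 4, those leaving out a library of 10 µM at 8 h or of 200 µM at 2 h (limma adjusted p up to 0.231 in the others). For 200 µM it passed in 18 and failed when replicate 2 of that level was left out at 2 h (0.0863) or 24 h (0.203). 4CL5 passed for 200 µM in 9. It failed when either library of 10 µM at 4, 12 or 24 h or of 200 µM at 2 or 12 h was left out, and its limma adjusted p was highest (0.375) with replicate 2 of 200 µM at 24 h left out.

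For each pair of paralogs the share of the first in their sum was taken. 4CL3 made up 72.0 to 77.6% of the summed FPKM of 4CL3 and 4CL5 over the 20 libraries, with a median of 75.9%. At 10 µM its share lay between 74.2 and 77.4%, and at 200 µM between 72.0 and 77.6%, so the ranges overlapped. Both libraries at 10 µM lay above both at 200 µM at 8 h (75.1 and 75.9% against 74.4 and 72.0%), at 12 h (76.25 and 75.8% against 73.5 and 73.6%) and at 24 h (76.85 and 77.4% against 76.7 and 75.4%). The levels were mixed at 2 h (76.2 and 76.9% against 77.6 and 74.5%) and at 4 h (75.9 and 74.2% against 75.03 and 76.5%). HCT1 and HCT6 were present at similar levels, with HCT1 at 42.1 to 54.5% of their sum and a median of 49.1%. All 4 libraries at 2 h had HCT1 at 52.5 to 54.5%, and all 4 at 12 h had it at 42.1 to 47.3%. These shares were not tested, and how reads shared by similar gene copies were counted is not given in the sources used here, so the split within each pair is uncertain.

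**Figure D3:**
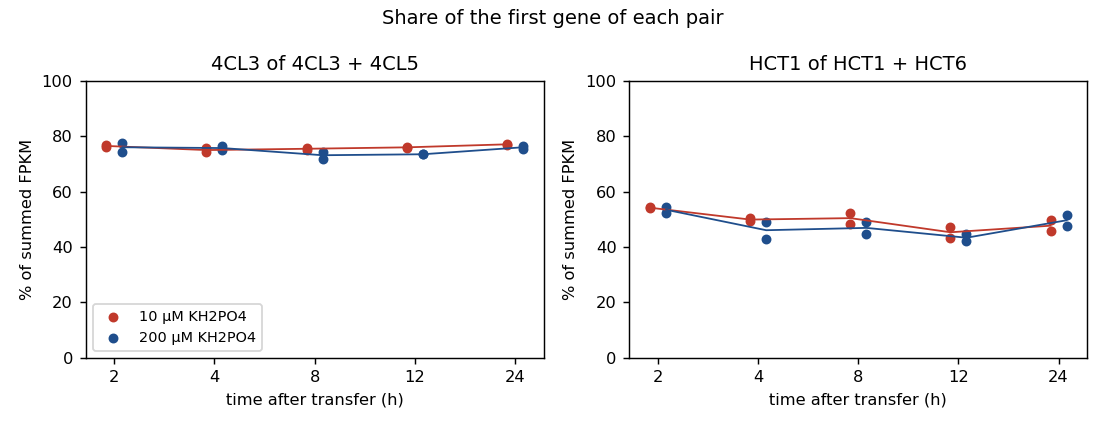
Share of 4CL3 in the summed FPKM of 4CL3 and 4CL5 (left) and of HCT1 in that of HCT1 and HCT6 (right), in percent, by time after transfer (equally spaced) and phosphate level. Points are single libraries and lines join group means, with 4CL3 between 72.0 and 77.6% and HCT1 between 42.1 and 54.5%.

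Across the 20 libraries the 4CL genes were the most alike of the 5. Their log2 levels correlated with Pearson r = 0.906, and only 2 of all other tested genes were closer to 4CL5 than 4CL3 was. HCT6 correlated with 4CL5 at 0.795 and with 4CL3 at 0.73, C3H3 with 4CL3 at 0.683, and HCT1 with its paralog HCT6 at 0.449. These values describe libraries that share 5 times, 2 phosphate levels and their depth. The 2 genes outside the members most like 4CL3 were Potri.008G038200 (0.927) and Potri.017G118100 (0.918), and those most like 4CL5 were Potri.010G089800 (0.935) and Potri.001G270800 (0.919). For HCT6 they were Potri.003G144000 and Potri.010G224100 (both 0.922), for C3H3 Potri.018G053300 (0.917) and Potri.006G100500 (0.884), and for HCT1 Potri.009G067700 (0.828) and Potri.008G107900 (0.803). Of these 10 genes, picked for following a member across the same libraries, Potri.001G270800 had a called mean phosphate difference (-0.36 on the log2 scale, limma adjusted p 0.0205) and the other 9 did not pass (adjusted p 0.168 to 0.886).

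The rest of the monolignol pathway was followed with a list of 17 further identifiers, taken from the published Populus trichocarpa assignments of the enzymes before 4CL and after C3H. The table does not pair these identifiers with names, so they are described only as a list. This list, too, was chosen with earlier results of these data known, so shares beside it are a description. All 17 were tested, at means of 12.6 to 330.7 FPKM. Over the 5 times 16 of the 17 had a lower level at 10 µM, as had 48.7% of all tested genes, with a median log2 difference of -0.14 and a range from -0.28 to 0.01. None of the 17 passed the adjusted threshold in limma (smallest adjusted p 0.168), and 9 were lower with an unadjusted p under 0.05, against 4.25% of tested genes. At single times the median difference of the list was -0.05, -0.12, -0.14, -0.27 and -0.21 in order of time, beside -0.06, -0.18, -0.32, -0.33 and -0.22 for the 5 members. Its summed level at 12 h was 2068 to 2269 FPKM at 10 µM and 2578 to 2672 FPKM at 200 µM, and at 2 h the levels overlapped (2006 to 2063 against 1981 to 2206 FPKM).

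Of the 17, 6 varied with time in limma's F test, against the 14.6% of tested genes given above. From 2 h to 24 h, 2 of the 17 rose at 200 µM, against 2.7% of tested genes, and none passed at 10 µM. With an unadjusted p under 0.05, 10 were higher at 24 h at 200 µM (11.5% of tested genes) and 4 at 10 µM (11.8%). 4CL3 and HCT6 each had 1 gene of the list, Potri.008G038200 and Potri.010G224100, among the 2 genes most like them.

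A list of 5 identifiers published as secondary wall cellulose synthases, which mark xylem cells laying down their walls, was measured beside these results. The 5 were expressed at means of 4.56 to 14.5 FPKM, and none was at 0 in a library. Averaged over the 5 times none of the 5 was lower at 10 µM. Their mean log2 differences ran from 0.0032 to 0.069, with 95% confidence intervals reaching from -0.37 to 0.42. None passed in limma (smallest adjusted p 0.95, and 0 with an unadjusted p under 0.05). The mean difference of 4CL5 lay inside 3 of these 5 intervals, and those of the other 4 members lay inside all 5. By time, 1 of the 5 list genes was lower at 10 µM at 2 h and 0 were at 4, 8 and 12 h. At 24 h all 5 of the list were lower, as were 50.6% of tested genes. Their median log2 difference at 24 h was -0.23 (range -0.43 to -0.18), beside -0.22 for the members. Their summed level differed between replicates at 2 h. Listed from low to high, it was 31.5 and 73.6 FPKM at 10 µM and 31.1 and 72.3 FPKM at 200 µM. At 12 h it was 28.1 to 49.5 FPKM at 10 µM and 30.9 to 32.4 FPKM at 200 µM, and at 24 h 35.7 to 39.4 FPKM against 41.0 to 53.2 FPKM. Across the 20 libraries, log2 levels of the 5 list genes correlated with HCT1 at Pearson r of 0.354 to 0.45 and with C3H3 at 0.167 to 0.401. With 4CL3 r was -0.309 to 0.063, with 4CL5 -0.472 to -0.188 and with HCT6 -0.233 to -0.0619. The part of differing xylem content in the results for the monolignol genes was not tested beyond these values.

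**Figure D4:**
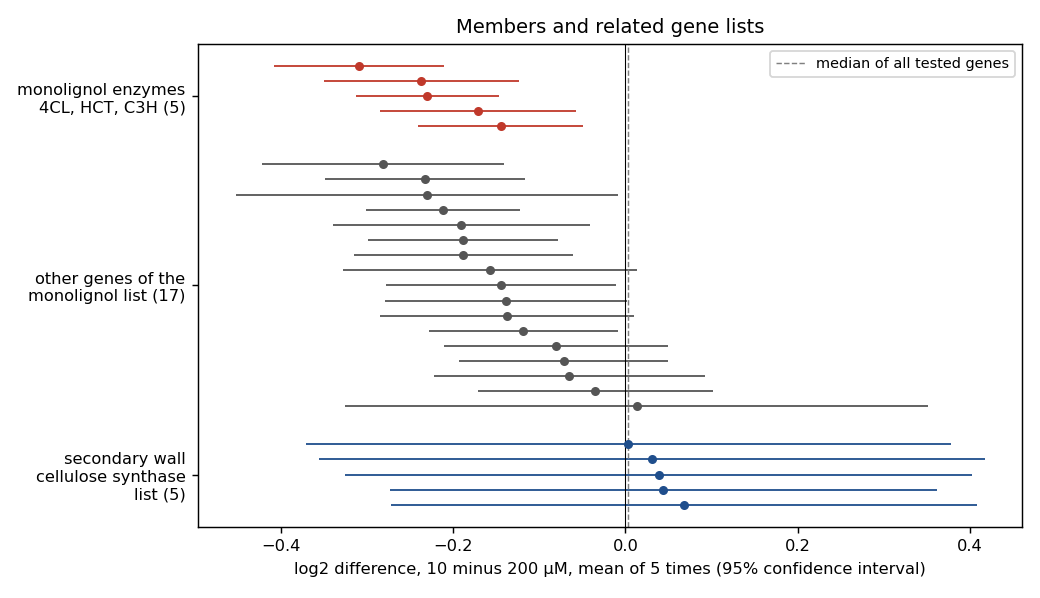
Log2 difference in level (10 minus 200 µM KH2PO4, mean of 5 times, horizontal axis) for the 5 members (red), the 17 other identifiers of the monolignol list (grey) and the 5 of the secondary wall list (blue), each with its 95% confidence interval from limma. The members lie between -0.31 and -0.14, 16 of the 17 others lie below 0, and the 5 of the secondary wall list lie at or just above 0, with the median of all tested genes (0.0026) as a dashed line.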

How the data were processed

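The authors deposited 1 table of FPKM values (fragments scaled by gene length and library total) for 34699 genes in 20 libraries. Per the submitters' processing notes, HISAT2 2.1.0 and Bowtie2 2.2.3 were used, in roles not stated. The reference genome, the annotation and the program that made the FPKM values are each not given in the sources used here, and no coordinates or sequences are reported. Columns were matched to samples by title, with 0 further columns of values.

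Fragments, gene lengths and library totals were recovered from the steps between FPKM values by a search over lengths. Whole fragments, to within 0.06, came out for 100% of the 24934 tested genes, with a median of 253 fragments per library. Totals and summed fragments differed by at most 38. The recovery and the model were tested on simulated data. No 2 replicates were alike within sampling noise (chi-square per degree of freedom of at least 4.147), so none were merged, which does not show that they came from separate plants.

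limma 3.58.1 in R 4.3.3 was fitted to log2(FPKM + 1) of all 20 libraries with 1 mean per group and a mean-variance trend, for genes with at least 1 FPKM in at least 2 libraries. Tests were two-sided, without a replicate block. Alternatives were a pseudocount of 0.1, no filter, quantile normalization, voom on fragments, a replicate block and leaving out libraries, where a lone library is assumed to vary like the others. The genes and lists were chosen with earlier results of these data known. The text names all 5 members and, for each, the 2 other tested genes with the highest Pearson r. Any other gene named was chosen by those rules, and lists are given by counts and medians.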

Additional observations from a re-analysis of the deposited data

How the results depend on the processing

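The mean phosphate difference kept its direction for all 5 members under every alternative run. The number of members called (1) was 2 without the filter or with voom on fragments, 0 without the 8 h libraries and 0 to 1 without single libraries, where all genes called (11) ranged from 6 to 25. At single times and for its variation with time, 0 members passed throughout. All genes called there (0) reached 1 without the filter at 4 h, at 12 h and for the variation, 4 with voom at 24 h, and 11 at 12 h without the 8 h libraries. Without single libraries they ranged from 0 to 1 at 2 and 4 h, 0 to 352 at 8 h, 0 to 4 at 12 h, 0 to 2 at 24 h and 0 to 31 for the variation.

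For variation with time 3 members passed under every alternative, while all genes called (3632) were 5526 without the 8 h libraries and 2072 (without replicate 2 at 200 µM and 12 h) to 5188 (without replicate 2 at 10 µM and 8 h). From 2 to 4 h, 1 member and 100 genes (against 0 and 12) passed without the 8 h libraries, and 0 to 1 and 0 to 100 without single libraries. All genes called from 4 to 8 h (60) were 16 without the filter and 0 to 250 without single libraries. From 8 to 12 h (27) they were 10 without the filter, 14 with the replicate block and 0 to 1763, and from 12 to 24 h (366) 1032 without the 8 h libraries and 64 to 1042.

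From 2 h to 24 h at 10 µM, the 1 member called was lost (0) with quantile normalization, the replicate block or only the 4 libraries of the contrast, and 0 to 1 passed without single libraries. All genes called (603) were 1092 without the 8 h libraries and 56 to 939. At 200 µM the 2 members were 1 with the block, 0 with the 4 libraries alone and 0 to 2, and all genes (920) were 8 with the 4 libraries alone and 101 to 1099.

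Replicate numbers were not shown to pair the libraries over the whole course: same-numbered deviations at 10 and 200 µM correlated across genes at 0.504, 0.0746, -0.238, 0.0738 and -0.0104 from 2 to 24 h. The value at 2 h was the highest of all 45 pairs of groups, whose median was 0.012. Whether the 2 h libraries shared a batch by number was not tested. With the block 4CL5 kept its mean difference (limma adjusted p 0.0463), and the changes from 2 to 24 h of 4CL3 at 10 µM (0.0598) and 4CL5 at 200 µM (0.0501) missed the threshold. With quantile normalization the step of C3H3 from 4 to 8 h (-0.014) and of HCT1 from 8 to 12 h (0.018) reversed. Without single libraries signs changed for HCT1 at 2 h (-0.12 to 0.079) and 4 h (-0.091 to 0.020), HCT6 at 2 h (-0.16 to 0.044) and C3H3 at 2 h (-0.22 to 0.16). They also changed for C3H3 from 2 to 4 h (-0.16 to 0.033), from 4 to 8 h (-0.033 to 0.076), and from 2 to 24 h at 10 µM (-0.017 to 0.16) and 200 µM (-0.021 to 0.36). The same held for HCT1 from 8 to 12 h (-0.045 to 0.026) and from 2 to 24 h at 10 µM (-0.18 to 0.013), and for 4CL3 from 12 to 24 h (-0.00079 to 0.073). None of these had passed. The causes were not tested. Quantile normalization moved no median over all genes by 0.1 or more. The largest move of a correlation between members, of those with a pseudocount of 0.1 or without the 8 h libraries, was from 0.472 to 0.393 (HCT6 and C3H3, the latter setting). Shares from fragments per length equal those from FPKM by construction and test nothing.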
